A study of Mus musculus with 6 samples.

Results

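The MCM helicase and origin licensing genes are the rows of the deposited count table with the symbols Mcm2, Mcm3, Mcm4, Mcm5, Mcm6, Mcm7, Mcm10, Cdc6, Cdt1 and Orc1, 10 of 24062 symbols listed. They were chosen by name, with earlier results of these data known. The KO libraries came from 3 mice (KO_339, KO_340 and KO_345) that carried Mx1-Cre and a floxed Ints11 gene, and the WT libraries from 3 littermates (WT_341, WT_343 and WT_344), all on a C57BL/6 background. In both groups Kit-positive marrow cells, described for the series as Lin-, were sorted 4 days after an injection of poly(I:C), and each library holds the RNA of 1 mouse. Mx1-Cre is switched on by interferon, which poly(I:C) induces, and it recombines in blood cells and in other tissues. The floxed exons, the ages of the mice and the presence of Mx1-Cre in the WT littermates could not be read from the sources used here. The comparison asks how transcripts of these genes differ between Ints11 KO and WT progenitors.

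Licensing prepares a DNA replication origin to be used in the coming S phase. The origin recognition complex (ORC), of which ORC1 is the largest subunit, binds DNA and recruits CDC6, and CDT1 then brings in the ring-shaped helicase made of MCM2 to MCM7. Each ring subunit is an ATPase, and the ring becomes active in S phase when CDC45 and the GINS complex join it. MCM10 acts at that later step of helicase activation. Many of these genes are known targets of E2F transcription factors, and blood progenitors in cycle express them strongly.

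RefSeq promoter windows (build GRCm38.p6, 250 bases before to 50 bases after a start site) were present in the sequence table for 9 of the 10 genes, the exception being Mcm4, with a pair of windows for Mcm7. The letters TTTNNCGC, a loose form of the E2F motif searched on both strands, occurred in windows of 7 of the 9 genes (7 of 10 windows), against 5.17% of all 32851 windows and 9.35% of the 7283 windows of tested genes with a mean of at least 20 CPM (read counts scaled to a common library size). Mcm2 and Mcm10 had no match within the window. The Mcm10 window ends in tttggcg, the first 7 of the 8 letters of the motif, so a match across its end cannot be read. Mcm6 had 3 matches, 2 of which overlapped by 4 bases, and Mcm5 had 2 that overlapped by 4 bases. The CCAAT box (CCAAT, both strands) was found in 8 of 10 windows against 37.4% of all windows, and the GC box (GGGCGG, both strands) in 8 of 10 windows against 35.7%. In the windows of tested genes with a mean of at least 20 CPM these shares were 37.0% and 64.8%. The GC box was thus common in expressed genes at large. Among genes that averaged 20 CPM or more and had a window, 13.5% of the 1929 called lower in KO libraries had an E2F-like match, against 10.3% of the 3242 that did not pass and 8.62% of the 499 called higher. A match is a run of letters and not a measured binding site. The windows of 4 genes are shown because they pair a match with a drop (Mcm7, Cdc6), a match without a call (Mcm5) and a drop with no full match inside the window (Mcm10). Each is written 5' to 3' on the strand of its gene, with E2F-like matches in capitals.
Mcm7, chr5:138171834-138172133, minus strand: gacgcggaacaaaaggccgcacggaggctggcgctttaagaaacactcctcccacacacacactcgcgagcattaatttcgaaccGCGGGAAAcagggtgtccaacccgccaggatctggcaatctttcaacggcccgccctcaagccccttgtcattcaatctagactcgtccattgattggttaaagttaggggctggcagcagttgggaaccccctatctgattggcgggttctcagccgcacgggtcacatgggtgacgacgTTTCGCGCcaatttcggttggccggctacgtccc
Cdc6, chr11:98907901-98908200, plus strand: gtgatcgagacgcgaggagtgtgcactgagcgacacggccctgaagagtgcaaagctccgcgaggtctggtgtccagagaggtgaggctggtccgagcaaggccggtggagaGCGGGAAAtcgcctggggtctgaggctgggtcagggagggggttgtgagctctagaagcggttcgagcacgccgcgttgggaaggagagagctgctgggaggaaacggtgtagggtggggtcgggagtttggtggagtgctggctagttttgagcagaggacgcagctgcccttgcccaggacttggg
Mcm5, chr8:75109259-75109558, plus strand: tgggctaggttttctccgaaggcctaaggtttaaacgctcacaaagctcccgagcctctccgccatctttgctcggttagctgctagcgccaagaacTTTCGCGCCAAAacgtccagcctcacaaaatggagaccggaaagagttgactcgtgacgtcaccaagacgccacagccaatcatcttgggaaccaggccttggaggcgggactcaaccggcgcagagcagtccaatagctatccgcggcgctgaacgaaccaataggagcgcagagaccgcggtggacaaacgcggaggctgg
Mcm10, chr2:5012742-5013041, minus strand: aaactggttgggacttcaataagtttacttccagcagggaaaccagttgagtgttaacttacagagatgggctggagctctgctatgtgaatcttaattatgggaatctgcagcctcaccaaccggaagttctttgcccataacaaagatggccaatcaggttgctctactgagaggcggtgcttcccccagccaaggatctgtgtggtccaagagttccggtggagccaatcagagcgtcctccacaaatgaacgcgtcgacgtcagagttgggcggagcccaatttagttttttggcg
In the Mcm7 window the matches began at -165 and at 17 from the RefSeq start site, the second sharing 1 base with a CCAAT box. The Cdc6 match began at -138, and the RefSeq start of Cdc6 lies 350 bases downstream of the start in GENCODE M21. The RefSeq start of the Mcm7 window shown lies 539 bases downstream of its GENCODE start. Both windows thus lie inside the GENCODE genes, and the sequence before those GENCODE starts was not searched. The Mcm5 pair began at -153 and -149. The other Mcm7 window held no E2F-like match.

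**Figure D1:**
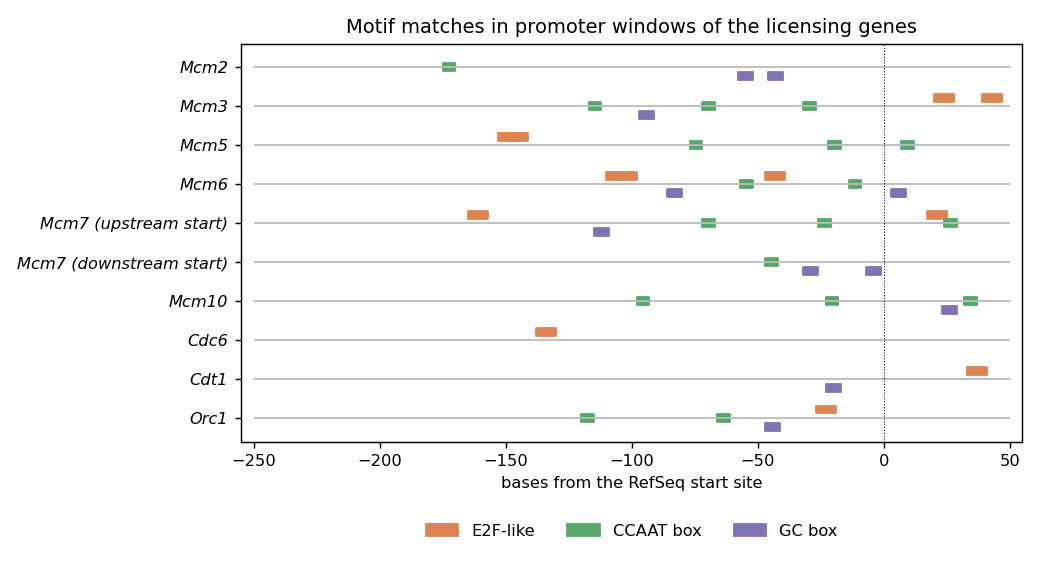
Positions of 3 motifs in the promoter windows, with bases from the RefSeq start site on the x axis and 1 row per window. Orange bars are E2F-like matches (TTTNNCGC), green bars CCAAT boxes and purple bars GC boxes, and E2F-like matches are missing from the rows of Mcm2, Mcm10 and the downstream start of Mcm7.

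The libraries held 124074531 to 166860739 counts, and the 10 genes between 3627 (Orc1) and 104949 (Mcm6) counts each, so all 10 passed the filter on low counts. Ints11 itself, listed as Cpsf3l, had 64.3, 58.3 and 60.2 CPM in the KO libraries and 73.8, 92.3 and 78.9 CPM in the WT libraries. It stood at 0.746 of the WT level (log2 change -0.42, adjusted p = 0.0174, edgeR), and this count over the whole gene does not show the extent of its deletion. The call was lost in 3 alternative fits, among them those without KO_340 (adjusted p = 0.0557) or KO_345 (0.0541). Kit, which defines the sort, averaged 228 ± 9.28 CPM in KO and 211 ± 11.5 CPM in WT libraries (SD, n = 3 each). Markers of mature neutrophils, which a Lin- gate would remove, were abundant: the summed level of 10 markers ran from 42606 to 56014 CPM in KO libraries and from 11111 to 35384 CPM in WT libraries, with none at 0 and 3 of 10 called higher. Of 8 stem and progenitor markers 5 were called higher, and of 10 erythroid, 8 B cell, 7 T and NK cell and 7 macrophage markers 0, 0, 3 and 1 were called higher and 1, 0, 1 and 0 lower. Over all tested genes 16.0% were called higher and 19.9% lower, so several of these small counts lie near those shares. By Xist and Y-linked counts KO_339, KO_340 and WT_341 came from males and KO_345, WT_343 and WT_344 from females. WT_341 had the highest neutrophil sum of the WT libraries and 12.1 CPM of the red cell gene Slc4a1, against 0.164 and 0.296 CPM in WT_343 and WT_344. In bulk RNA, fewer cells of a kind and less RNA per cell cannot be told apart.

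Transcripts of the licensing genes were lower in Ints11 KO progenitors. Of the 10 genes 8 fell and 0 rose, while 19.9% of all 15742 tested genes were called lower and 16.0% higher (edgeR, adjusted p under 0.05 over all tested genes). Of the 7365 genes with a mean of at least 20 CPM, 33.9% were called lower and 8.99% higher. The median log2 change of the 10 genes was -0.38, against 0.01 for all tested genes and -0.16 for those with at least 20 CPM. Cdc6, Mcm7 and Mcm10 showed the largest drops, at 0.580, 0.604 and 0.627 of the WT level, and Mcm5 and Orc1 did not pass. The count of 8 was 5 with upper-quartile scaling and 3 with the neutrophil level as a covariate. Lower calls over all tested genes went from 3139 to 1931 and 861 in these fits. The count among the 10 genes was 4 without KO_339, KO_345 or WT_344, 5 without KO_340, 6 without WT_343 and 10 without WT_341. Lower calls over all tested genes also fell, to 1263 without KO_339, 1664 without KO_340, 1645 without KO_345 and 1840 without WT_344. They numbered 2430 without WT_343 and 4306 without WT_341, against 3139 with all 6 libraries. For 9 of the 10 genes (all but Orc1) the highest KO library was lower than the lowest WT library, which was true of 28.4% of all tested genes and 45.7% of those with at least 20 CPM.

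**Figure D2:**
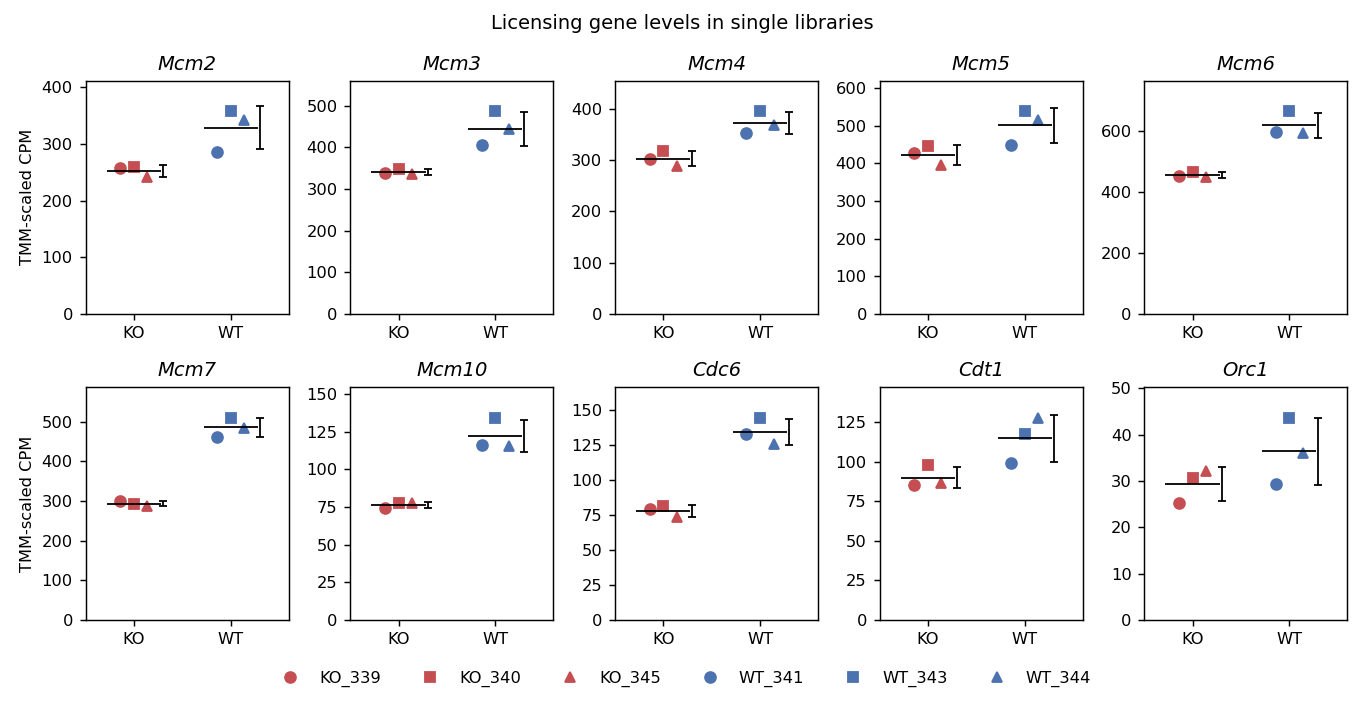
TMM-scaled CPM of the 10 genes on the y axis of each panel, with KO libraries in red and WT libraries in blue; symbols mark single libraries and do not pair mice, lines are means and bars SD (n = 3 each). KO points lie below every WT point in all panels but that of Orc1, where 30.6 and 32.2 CPM in KO_340 and KO_345 exceed 29.4 CPM in WT_341.

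Mcm7 changed most among the 6 genes of the helicase ring. It had 300.003, 291 and 288 CPM in KO_339, KO_340 and KO_345, against 461, 510 and 485 CPM in WT_341, WT_343 and WT_344. The groups were far apart, and the spread within each was small. The log2 change was -0.73 ± 0.07 (SE, adjusted p = 0.00234, edgeR). Mcm6, the most counted ring gene, had 452, 465 and 448 CPM in the KO libraries and 595, 664 and 594 CPM in the WT libraries. Its groups did not overlap, and it fell by 0.44 ± 0.08 on the log2 scale (adjusted p = 0.00835).

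The other ring genes that fell, Mcm3, Mcm2 and Mcm4, changed less. Mcm3 had 338, 349 and 335 CPM in KO libraries, against 405, 487 and 444 CPM in WT libraries (log2 change -0.39 ± 0.09, adjusted p = 0.0159). Mcm2, whose protein closes the ring next to MCM5, had 257, 260 and 241 CPM in KO libraries, against 286, 358 and 342 CPM in WT libraries (log2 change -0.38 ± 0.10, adjusted p = 0.0238). Mcm4 had 302, 319 and 288 CPM in KO libraries, against 354, 395 and 369 CPM in WT libraries (log2 change -0.30 ± 0.08, adjusted p = 0.0253). In all 3 genes the highest KO library lay below the lowest WT library, which was WT_341 each time. Mcm5 had 427, 445 and 395 CPM in KO libraries, against 449, 539 and 517 CPM in WT libraries. Its KO_340 and WT_341 values nearly met, and -0.25 ± 0.10 on the log2 scale missed the threshold (adjusted p = 0.0798).

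These ring calls depended on single libraries to different degrees. The call of Mcm7 held in all 15 alternatives tried, and that of Mcm6 in 14. The call of Mcm3 was lost without KO_339 (adjusted p = 0.0605), KO_345 (0.0505) or WT_344 (0.0523). That of Mcm2 was lost without KO_339 (0.0717), KO_340 (0.0557), KO_345 (0.0759), WT_343 (0.0502) or WT_344 (0.0787). That of Mcm4 was lost without KO_339 (0.0925), KO_340 (0.0502), KO_345 (0.0862) or WT_344 (0.0709). Without WT_341, Mcm5 passed (log2 change -0.33, adjusted p = 0.0129). The direction was the same in all of these fits. Lower calls over all tested genes were also fewer without KO_339, KO_340, KO_345, WT_343 or WT_344, and more without WT_341.

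The ring holds 1 copy of each subunit, so the composition of its transcripts was compared within libraries, where no scaling between libraries enters. Each gene's counts were divided by the length of its annotated exons and given as a share of the 6. Mcm7 made up 14.04%, 13.3% and 14.01% in KO_339, KO_340 and KO_345, against 17.6%, 16.9% and 17.2% in WT_341, WT_343 and WT_344. The groups did not overlap, and KO minus WT was -3.45 percentage points. Mcm5 made up 22.1%, 22.5% and 21.3% in KO libraries and 19.01%, 19.7% and 20.3% in WT libraries, and Mcm4 17.5%, 17.9% and 17.3% in KO libraries and 16.7%, 16.1% and 16.2% in WT libraries. Both shares were higher in every KO library than in every WT library. The shares of Mcm2 (7.55% in KO, 7.40% in WT), Mcm3 (18.9% and 18.6%) and Mcm6 (20.3% and 20.8%) overlapped between groups. The exact two-sided permutation test gave p = 0.10 for Mcm4, Mcm5 and Mcm7, the smallest value that 3 against 3 libraries allow, and adjusted p = 0.20 over the 6 shares.

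**Figure D3:**
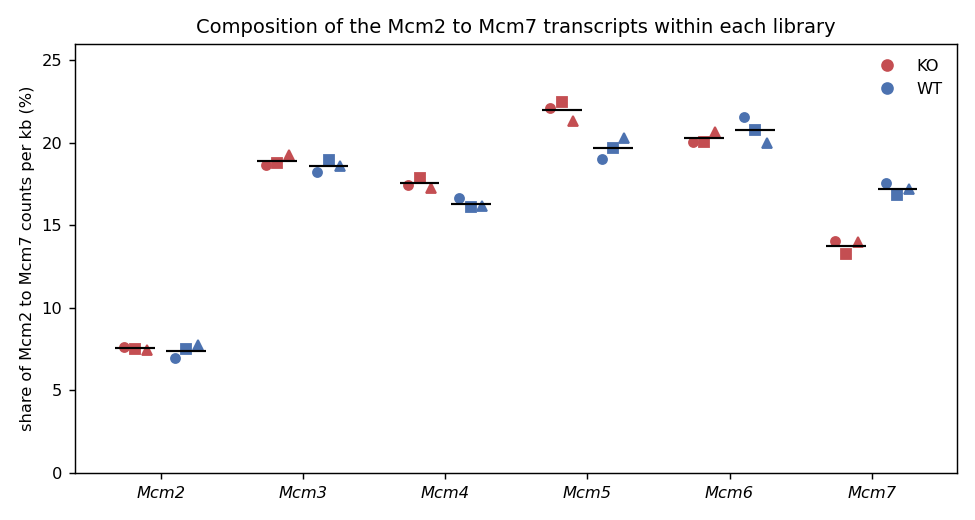
Share of each gene in the summed counts per kb of Mcm2 to Mcm7, in percent, for KO libraries (red) and WT libraries (blue); symbols mark single libraries and black lines means of 3. Mcm7 sits at 13.3 to 14.04% in KO and 16.9 to 17.6% in WT libraries, while Mcm4 and Mcm5 sit higher in KO libraries. Shares of a library add up to the whole, so they do not move independently.

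Per kb of annotated exon, the KO levels of the ring genes ran from 106 ± 6.38 CPM for Mcm5 through 97.5 ± 1.85 for Mcm6, 90.9 ± 1.99 for Mcm3, 84.5 ± 4.28 for Mcm4 and 66.2 ± 1.42 for Mcm7 to 36.3 ± 1.46 for Mcm2 (CPM per kb, SD, n = 3). In WT libraries the order was Mcm6 (132 ± 8.55), Mcm5 (126 ± 11.6), Mcm3 (119 ± 10.9), Mcm7 (109.6 ± 5.59), Mcm4 (104 ± 5.83) and Mcm2 (47.2 ± 5.43). Below the ring genes came Cdt1 at 28.7 ± 2.14 in KO and 36.6 ± 4.69 in WT libraries, Cdc6 at 14.9 ± 0.818 in KO and 25.6 ± 1.84 in WT libraries, Mcm10 at 9.94 ± 0.237 in KO and 15.9 ± 1.40 in WT libraries, and Orc1 at 8.42 ± 1.06 in KO and 10.46 ± 2.06 in WT libraries. Neighbours in the WT order from Mcm6 to Mcm4 differed by less than the larger of their SDs. The order also depends on the length used: the exons of Mcm2 cover 6956 bases when all transcripts are merged and 3494 in the longest one, which puts Mcm2 at 72.3 ± 2.92 in KO and 94.05 ± 10.8 CPM per kb in WT libraries. By the longest transcript Mcm7 stood at 98.9 ± 2.12 in KO and 164 ± 8.35 CPM per kb in WT libraries, the highest of the ring genes in WT.

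Mcm7 carries a microRNA cluster, Mir106b, Mir93 and Mir25, in an intron (13 of 14) of its longest transcript, on the same strand. Mcm7 spans chr5:138164583-138172422 (minus strand, GRCm38), and the hairpins lie between 138165321 and 138165818. The mature sequences of the main arms are shown because 2 of the 3 share a seed (bases 2 to 8, in capitals), and miR-93 and miR-106b belong to the miR-17 seed family.
miR-106b-5p: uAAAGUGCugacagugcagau
miR-93-5p: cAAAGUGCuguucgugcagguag
miR-25-3p: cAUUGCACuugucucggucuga
The hairpin genes had 41, 36 and 40 counts for Mir106b in KO_339, KO_340 and KO_345, against 74, 51 and 59 in WT_341, WT_343 and WT_344. Mir93 had 82, 84 and 75 counts in KO libraries and 119, 121 and 117 in WT libraries, and Mir25 had 126, 160 and 127 counts in KO libraries and 171, 242 and 205 in WT libraries. Every KO value was below every WT value. Their log2 changes of -0.63 ± 0.33, -0.52 ± 0.24 and -0.52 ± 0.22 did not pass (adjusted p = 0.166, 0.117 and 0.10). Messenger RNA libraries do not measure mature microRNAs, and no mature level can be read from these few counts.

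Of the loading factors, Cdc6 showed the largest drop of the 10 genes. Cdc6 had 78.8, 81.4 and 73.05 CPM in KO_339, KO_340 and KO_345, against 132, 144 and 125 CPM in WT_341, WT_343 and WT_344. The lowest WT library stood well above the highest KO library, and the log2 change was -0.78 ± 0.08 (adjusted p = 0.00242, edgeR). Mcm10, the helicase activation factor, had 74.3, 77.5 and 77.5 CPM in KO libraries and 116, 134 and 115 CPM in WT libraries. Its KO libraries were nearly level, and it fell by 0.67 ± 0.08 on the log2 scale (adjusted p = 0.00327). Both calls held in all 15 alternatives.

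Cdt1, the loader of the MCM ring, had 85.7, 97.8 and 86.7 CPM in KO libraries, against 99.05, 118 and 128 CPM in WT libraries. KO_340 and WT_341 came within 2 CPM of each other, and the log2 change of -0.35 ± 0.11 passed narrowly (adjusted p = 0.0408). This call was lost without any single library but WT_341 (adjusted p from 0.0574 without KO_340 through 0.0844 without WT_343, 0.125 without WT_344 and 0.132 without KO_345 to 0.147 without KO_339). It was also lost with sex as a covariate (0.0796), with the filter of 1 CPM in 3 libraries (0.0738), with library totals (0.0876) and with upper-quartile factors (0.130). Orc1 had 25.2, 30.6 and 32.2 CPM in KO libraries and 29.4, 43.7 and 36.03 CPM in WT libraries, so its groups overlapped. The fitted value, -0.31 ± 0.16 on the log2 scale, did not reach the threshold (adjusted p = 0.163), and did without WT_341 (-0.46, adjusted p = 0.0236).

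Within a sex 1 arm is a single library (2 KO and 1 WT library of males, 1 KO and 2 WT libraries of females), and the male WT library is WT_341, so these differences are values with no test. In males the difference in log2 CPM ran from -0.72 for Cdc6 to -0.04 for Mcm5, and in females from -0.88 for Cdc6 to -0.30 for Orc1. Cdc6, Mcm7 and Mcm10 differed by -0.72, -0.64 and -0.61 in males and by -0.88, -0.79 and -0.68 in females.

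The level of neutrophil markers ran opposite to that of these genes between the groups and among WT libraries, but not among KO libraries. The summed level of the 10 genes was 2340, 2417 and 2265 CPM in KO_339, KO_340 and KO_345, against 2927, 3393 and 3156 CPM in WT_341, WT_343 and WT_344. Among the WT libraries the sum was highest in WT_343, which had the lowest neutrophil sum, and lowest in WT_341, which had the highest. Among the KO libraries KO_345 had the lowest of both sums (neutrophil sum 42606 CPM). KO_339, with the highest neutrophil sum (56014 CPM), lay between KO_345 and KO_340 in the sum of the 10 genes. With the neutrophil level as a covariate, Cdc6 (log2 change -0.70, adjusted p = 0.0172), Mcm7 (-0.64, 0.0123) and Mcm10 (-0.52, 0.0210) still passed. Mcm6 (-0.33, 0.0578), Mcm3 (-0.20, 0.153), Mcm4 (-0.19, 0.211), Mcm2 (-0.17, 0.312) and Cdt1 (-0.17, 0.452) did not, Mcm5 was at -0.07 and Orc1 at 0.14. The neutrophil level was higher in every KO than in every WT library, so this covariate and the genotype cannot be told apart fully.

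**Figure D4:**
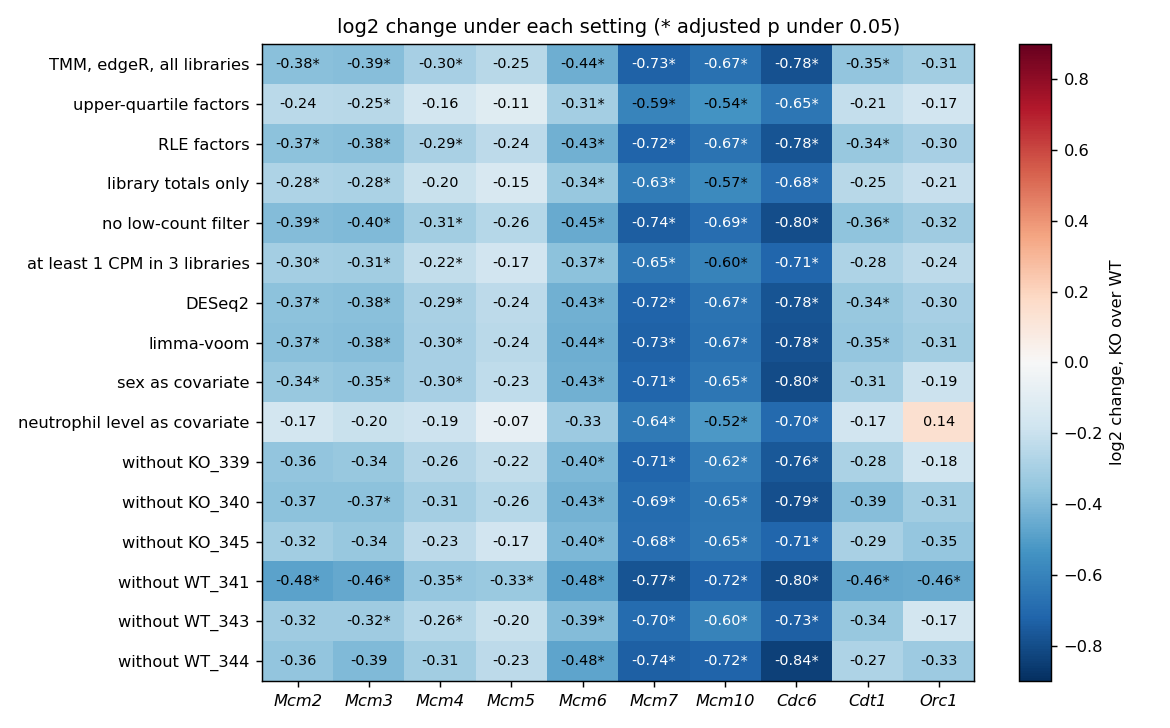
Fitted log2 changes (KO over WT) of the 10 genes in columns under 16 settings in rows, the first being the fit reported here; blue is lower in KO, and an asterisk marks an adjusted p under 0.05. Cdc6, Mcm7 and Mcm10 carry an asterisk in every row, and the 1 positive value is 0.14 for Orc1 with the neutrophil covariate.

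The remaining ORC subunits and helpers of licensing fell in 4 of 7 cases, and 0 rose. Lower calls made up 19.9% of all tested genes and 33.9% of those with at least 20 CPM. Orc3 averaged 111 ± 1.46 CPM in KO and 165 ± 19.8 CPM in WT libraries (log2 change -0.57, adjusted p = 0.00626). Orc2 averaged 56.5 ± 1.77 CPM in KO and 83.6 ± 15.2 CPM in WT libraries (-0.57, 0.0153), and Orc6 43.3 ± 0.510 CPM in KO and 57.04 ± 3.24 CPM in WT libraries (-0.40, 0.00908). Kat7, the acetyltransferase HBO1 that marks histones at origins, had a log2 change of -0.27 (adjusted p = 0.0262). The changes of Orc5 (-0.40), Lrwd1 (-0.19) and Orc4 (-0.07) did not pass (adjusted p = 0.0517, 0.211 and 0.573), and that of Orc4 was 0.07 with upper-quartile scaling. Orc2 lost its call without KO_339 (0.0511) or KO_345 (0.0514), and Kat7 without KO_339 (0.107), KO_340 (0.0725), KO_345 (0.0741) or WT_344 (0.0805). Orc5 passed with DESeq2 (0.0295), with sex as a covariate (0.0289) and without WT_341 (0.0445) or WT_344 (0.0398), and Lrwd1 without WT_341 (0.00775). The list held 2 calls without KO_339 or KO_345 and 1 with the neutrophil covariate.

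Of 4 other genes tied to the MCM family by sequence or binding, 1 fell and 1 rose, which is near the shares over all tested genes (19.9% lower and 16.0% higher). Mcm8, a helicase of homologous recombination, averaged 17.7 ± 0.698 CPM in KO and 29.6 ± 2.53 CPM in WT libraries (log2 change -0.74 ± 0.10, adjusted p = 0.00377). Its partner Mcm9 (-0.12, adjusted p = 0.296) and Mcmbp, which binds MCM subunits (-0.17, 0.134), did not pass. Mcmdc2, a meiotic gene with an MCM domain, rose to 3.41 ± 0.393 CPM in KO libraries, against 1.85 ± 0.0986 CPM in WT libraries (log2 change 0.88 ± 0.17, adjusted p = 0.0103).

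Genes that restrain or end licensing fell in 5 of 10 cases and 0 rose. Of all tested genes with at least 20 CPM 33.9% were called lower, so this count is not far above that share. Gmnn, which encodes the CDT1 inhibitor geminin, averaged 52.4 ± 2.74 CPM in KO and 78.2 ± 5.22 CPM in WT libraries (log2 change -0.58 ± 0.08, adjusted p = 0.00435). The log2 ratio of Cdt1 to Gmnn counts within a library was 0.64, 0.90 and 0.81 in KO libraries, against 0.37, 0.49 and 0.79 in WT libraries. KO_339 lay below WT_344, and the means differed by 0.23 (exact two-sided permutation test, p = 0.20, n = 3 each). Of the ubiquitin ligase CRL4-CDT2, which destroys CDT1 in S phase, 4 genes fell: its receptor gene Dtl (log2 change -0.48), the cullin genes Cul4a (-0.56) and Cul4b (-0.37) and the adaptor gene Ddb1 (-0.56), with adjusted p of 0.00734, 0.00345, 0.0103 and 0.0142. The RING subunit gene Rbx1 (-0.24, adjusted p = 0.0633), Skp2 (-0.15, 0.249), Ccna2 (-0.16, 0.101), Cdk2 (0.11, 0.335) and Fbxo5 (0.02, 0.898) did not pass. Ddb1 lost its call without KO_339 (0.0523), and Rbx1 (0.0295) and Skp2 (0.0357) passed without WT_341, Rbx1 also with DESeq2 (0.0457) and with no filter on low counts (0.0441).

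Genes that fire licensed origins fell in 11 of 15 cases, and 0 rose, while 33.9% of tested genes with at least 20 CPM were called lower. Cdc45, which turns the MCM ring into an active helicase, averaged 76.3 ± 4.54 CPM in KO and 128 ± 13.9 CPM in WT libraries (log2 change -0.74, adjusted p = 0.00358). The GINS genes Gins1 (-0.69, adjusted p = 0.00377) and Gins2 (-0.89, 0.00398) and Wdhd1, which ties the helicase to polymerase alpha (-0.57, 0.00388), fell as well. The median of the 15 was -0.37. The calls in this list numbered 7 with upper-quartile scaling, 6 with the neutrophil covariate, 6 without KO_339 or KO_345 and 7 without KO_340 or WT_344.

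**Figure D5:**
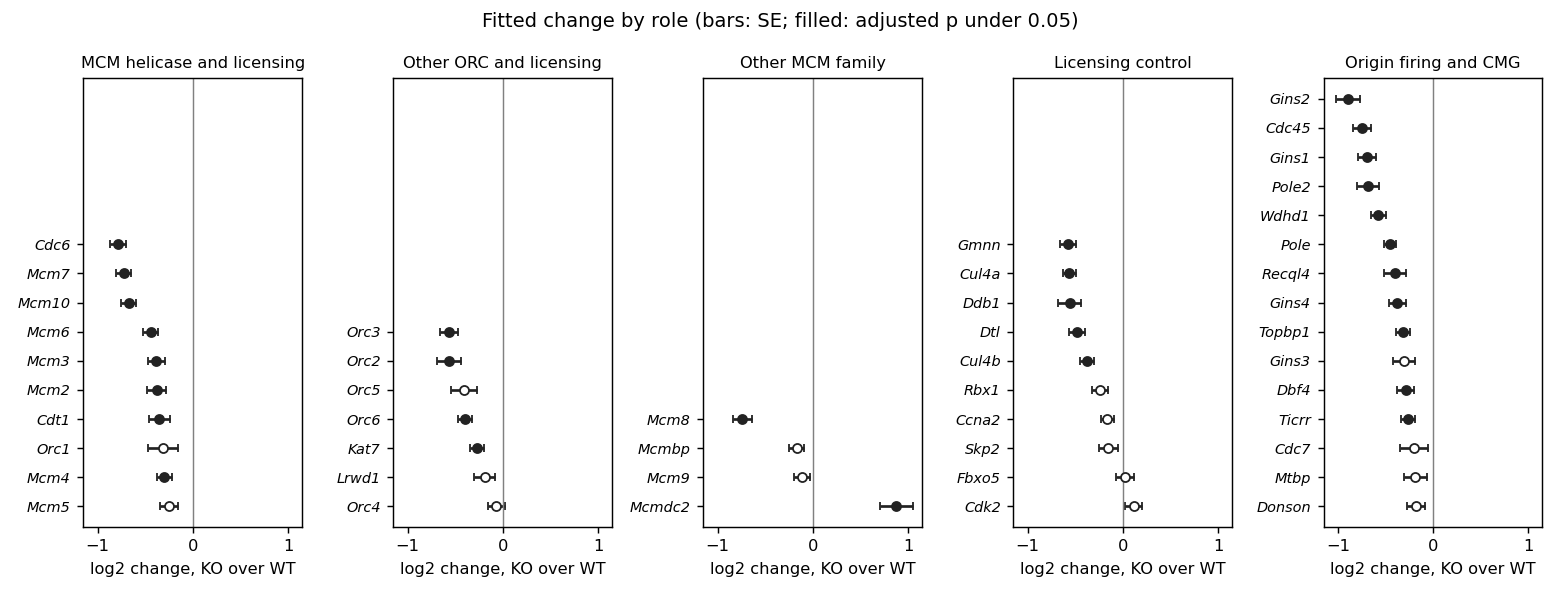
Fitted log2 change (x axis, KO over WT) of each gene in 5 groups by role, with SE bars; filled points have an adjusted p under 0.05 and open points do not. Nearly all points lie left of 0, with Mcmdc2 at 0.88 as the one filled point on the right.

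Beyond origins, 17 of 21 genes of the replication fork fell and 0 rose, with a median log2 change of -0.50, and Timeless (-0.73), Prim2 (-0.63), Pold3 (-0.59) and Pola2 (-0.63) had the smallest adjusted p (0.00155 to 0.00337). Of 22 genes of G2 and mitosis 10 fell and 0 rose, with a median of -0.22, Bub1 at -0.67, Ccnb2 at -0.44, Hmmr at -0.35 and Birc5 at -0.34. Among all tested genes with at least 20 CPM, 33.9% were called lower and 8.99% higher, with a median of -0.16. The mitosis median lay near that of such genes. The mitosis count was 3 with upper-quartile scaling, without KO_340 or without KO_345, 4 without KO_339 or WT_344 and 6 without WT_343. Mki67, a gene transcribed in all cycling cells and picked here after its values were seen, averaged 1892 ± 132 CPM in KO and 1881 ± 117 CPM in WT libraries (log2 change 0.01 ± 0.10, adjusted p = 0.955). Of 13 E2F and pocket protein genes 3 fell and 0 rose. Lower calls made up 19.9% of all tested genes and 33.9% of those with at least 20 CPM. The 3 that fell were E2f4 (-0.52), E2f6 (-0.43) and E2f1 (-0.32). E2f1 lost its call without any KO library (0.058 to 0.111) or WT_344 (0.0634), and E2f6 without KO_339 (0.0566) or KO_340 (0.0502). E2f7, a repressor of the family, was at 0.47 (adjusted p = 0.0586) and passed in 6 of 15 alternatives. These were upper-quartile factors (0.0405), library totals (0.0451), the filter of 1 CPM in 3 libraries (0.0496), DESeq2 (0.0275), limma-voom (0.0454) and the fit without WT_341 (0.64, 0.00429).

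Some of the 10 genes share a start region with a neighbour. Prkdc, the DNA-dependent protein kinase gene, starts 466 bp from Mcm4 on the other strand, and averaged 95.4 ± 2.01 CPM in KO and 157 ± 4.38 CPM in WT libraries (log2 change -0.72 ± 0.06, adjusted p = 0.00144), against -0.30 for Mcm4. Ap4m1 starts 420 bp from Mcm7 on the other strand and overlaps it by 421 bp by the GENCODE start of Mcm7. The RefSeq start of the Mcm7 window shown lies 539 bp downstream, where the overlap is absent. The Ap4m1 change of -0.18 ± 0.10 did not pass (adjusted p = 0.194), against -0.73 for Mcm7. Prpf38a starts 87 bp from Orc1, and its change of -0.13 ± 0.10 did not pass (0.323). Cops6 overlaps the far end of Mcm7 by 64 bp and fell by 0.55 on the log2 scale (0.00682). Whether reads were counted by strand was not stated in the labels or the processing notes, so counts in the overlapping stretches may hold reads of either gene.

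The mean profile of the 10 genes over the 6 libraries was set against those of other expressed genes. Likeness was measured as the root-mean-square difference between centred log2 CPM values. Of 13583 protein-coding genes outside the lists, 42 lay nearer to the mean profile than Mcm3, the nearest of the 10 (0.0394), and 1310 lay within 0.1, with a median of 0.300 over all. The nearest were Mlec (0.0117), Emc1, Mrpl10, Eef2k, Med24 and Nup155 (0.0235), with log2 changes from -0.48 to -0.44, and Mlec lost its call without KO_339 (adjusted p = 0.0521). They were picked for their likeness over these same libraries, so their changes follow from the choice. The 10 genes lay between 0.0394 for Mcm3 and 0.177 for Cdc6. They make up the mean profile themselves, so their distances and those of other genes are not alike.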

How the data were processed

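The authors deposited unnormalized counts of reads for each gene symbol in each library, from strand-specific messenger RNA libraries read as pairs of 75 bp. The submitters' processing notes give the build mm10 and the tools FastQC, Trimmomatic, STAR and HTSeq, with no versions. The annotation and strand setting used are not stated there. No column was left unused. The test was edgeR 4.0.16 (R 4.3.3; filterByExpr with a minimum count of 10 and a minimum total of 15, TMM factors, robust quasi-likelihood fit, Benjamini-Hochberg adjustment over 15742 genes, threshold 0.05), after a trial on simulated data. CPM are scaled by TMM factors. Per the labels' protocols each library is RNA of an individual mouse. Alternatives were DESeq2 1.42.0, limma-voom (limma 3.58.1), other scalings and filters, sex and neutrophil covariates (sex read from Xist and Y-linked counts) and each library left out. Exon lengths, starts and neighbours came from GENCODE M21 (GRCm38, the assembly of mm10) and sequences from RefSeq. The genes, lists and rule for named genes (all members, the smaller lists in full, the 4 smallest adjusted p of each longer list, neighbours and nearest profiles) were chosen with earlier results of these data known, so no list is independent evidence; Kit, Mki67 and Slc4a1 were picked after their values were seen.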

Additional observations from a re-analysis of the deposited data

How the results depend on the processing

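No paired analysis was possible because the groups share no replicate numbers. Calls of Cdc6, Mcm7 and Mcm10 held in all 15 alternatives, and over the 10 genes 118 of 150 values kept their direction and side of the threshold, 29 lost a call, 2 gained one and 1 reversed (Orc1, 0.14 with the neutrophil covariate). Upper-quartile factors left 5 of the 10 genes lower (median -0.24), 7 firing genes lower, 3 mitosis genes lower, 2 E2F and pocket genes higher and 1931 of all genes lower. Library totals only gave a median of -0.28, 5 mitosis genes lower and 2 E2F and pocket genes higher. The median of all tested genes moved to 0.15 and 0.11 under these scalings, against 0.01 with TMM, and the 10 genes' median minus that of all genes was -0.39 in each. Both scalings ended the calls of Mcm4, Cdt1, Kat7 and E2f1, and upper-quartile factors also those of Mcm2 and Birc5. E2F and pocket genes called higher were 2 with a filter of 1 CPM in 3 libraries and 1 with DESeq2 and with limma-voom. The neutrophil covariate left 3 of the 10 genes lower (median -0.19), and 1 licensing helper, 2 restraining genes, 6 firing, 11 fork, 5 mitosis and 0 E2F and pocket genes lower, 0 other MCM genes higher, and 861 lower and 507 higher genes in all. Leaving out single libraries gave 4 to 10 of the 10 genes lower, 2 to 6 licensing helpers, 6 to 11 firing genes, 3 to 12 mitosis genes and 1 to 3 E2F and pocket genes lower, 0 to 1 mitosis genes and 0 to 3 E2F and pocket genes higher, and 1263 to 4306 lower and 1039 to 3573 higher genes in all. The KO minus WT share of Mcm2 ran from -0.08 to 0.32 percentage points, negative without WT_341 (-0.077). That of Mcm7 was -4.04 points by longest transcript and -3.63 to -3.19 without single libraries. The cause of these moves was not tested.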
